A study of Mus musculus with 2 samples.

Results

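The transcripts described here encode 10 scavenger and lectin proteins that bind or take up material from the blood of the liver sinusoid: Marco, Msr1, Cd163, Cd36, Scarb1, Mrc1, Clec4f, Lyve1, Cd5l and Clec4g. They were picked by gene symbol, as 10 of the 31053 genes listed with the deposited matrix, and each symbol matched 1 gene. All 10 had enough UMI to pass the filter on low counts used below.

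Sinusoidal blood flows past fenestrated endothelial cells and past Kupffer cells, the resident macrophages that sit on them. Both cell types carry scavenger receptors, which bind modified lipoproteins, bacteria, haemoglobin complexes and cell debris, and C-type lectins, which bind sugars on glycoproteins and pathogens. Together they make the liver a main site at which particles and waste proteins leave the circulation.

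Liver cells were captured in droplets on the 10x Genomics Chromium platform, which labels each transcript molecule with the barcode of its droplet and with a random molecular tag (UMI). The labels give 1 sample of genotype Rcrin KO, whose mice are described as a conditional knockout for the liver, and 1 of genotype WT, described as Rcrin flox mice. Both have the strain name RedMUC298trTg and an age of 8 weeks. Livers were digested with collagenase IV and the suspension was sorted; the Cre driver, the gate and the number of animals are not given in the sources used here. The matrix, gene and barcode files of the Rcrin KO sample and of the WT sample were identical, with all 11192 barcodes shared, so they hold 1 matrix whose cells have no known genotype. Rcrin itself was not analysed here, no Rcrin KO cell was set against a WT cell, there was no replicate and no test was made.

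The matrix held 67037274 UMI over 11192 barcodes, and 9984 cells with a median of 4247.5 UMI were kept. Cells were clustered with the 10 genes left out, and clusters were named from markers that include none of them. The labels call the cells immune cells, but 804 of them (8.05%) formed a liver sinusoidal endothelial-like class, with all 10 endothelial markers in at least 25% of its cells. Kupffer-like cells numbered 514, with a median of 13167.5 UMI, against 7323.5 UMI in endothelial-like cells. The 9 Kupffer markers summed to 21781 counts per 1000000 UMI (CPM) in Kupffer-like cells and 445 CPM in endothelial-like cells. The 10 endothelial markers summed to 740 CPM in Kupffer-like cells and 19986 CPM in endothelial-like cells. Levels are compared over 12 classes of at least 30 cells. Intervals are exact 95% intervals (Poisson for CPM, conditional for ratios, Clopper-Pearson for shares) that cover counting error only. Levels of different genes are not compared.

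The promoters of 3 sharply divided genes are shown so that they can be set side by side: Cd5l and Clec4f, highest in Kupffer-like cells, and Clec4g, highest in endothelial-like cells. The 250 bases before the RefSeq start are printed 5′ to 3′ on the gene's strand (RefSeq, GRCm38.p6). Cd5l lies at chr3:87357631-87357880 on the plus strand, Clec4f at chr6:83656117-83656366 and Clec4g at chr8:3720652-3720901 on the minus strand. Capitals mark TGCTGA, the core of the sequence bound by MAF transcription factors, on either strand.
Cd5l: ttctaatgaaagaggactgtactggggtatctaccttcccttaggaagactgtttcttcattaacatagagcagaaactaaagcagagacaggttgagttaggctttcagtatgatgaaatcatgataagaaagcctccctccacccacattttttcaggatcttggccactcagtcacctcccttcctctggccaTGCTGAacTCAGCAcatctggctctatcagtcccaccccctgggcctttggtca
Clec4f: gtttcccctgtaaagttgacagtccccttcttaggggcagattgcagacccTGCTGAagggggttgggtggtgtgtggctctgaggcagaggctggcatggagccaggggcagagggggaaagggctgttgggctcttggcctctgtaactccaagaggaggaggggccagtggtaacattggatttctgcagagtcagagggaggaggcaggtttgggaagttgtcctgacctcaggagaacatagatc
Clec4g: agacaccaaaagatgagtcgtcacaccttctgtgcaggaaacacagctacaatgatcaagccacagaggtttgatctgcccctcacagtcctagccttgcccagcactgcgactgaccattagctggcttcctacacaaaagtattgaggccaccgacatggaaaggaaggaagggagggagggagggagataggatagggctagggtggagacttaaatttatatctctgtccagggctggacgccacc

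In the Cd5l sequence 2 copies of TGCTGA face each other across 2 bases, and the first begins 54 bases before the start. Clec4f has 1 copy, beginning 199 bases before the RefSeq start, and the Clec4g sequence has none. In GENCODE the Clec4f gene reaches to chr6:83656187, so the last part of its printed sequence lies within that gene. RefSeq windows of 250 bases before to 50 bases after the start were found for 7 of the 10 genes (not for Msr1, Scarb1 and Lyve1), and 3 of those (Cd36, Clec4f and Cd5l) hold TGCTGA, as do 19.5% of all 32851 windows. The end of the Cd36 window lay in no GENCODE transcript of that gene, unlike the ends of the other windows. The facing pair, written TGCTGANNTCAGCA and looked for after the Cd5l sequence had been seen, is in 2 of the 32851 windows (0.00609%), and Cd5l is the only one of the 10 genes with it. On both strands, the PU.1 sequence GAGGAAGT (3.20% of all windows), the RBPJ sequence GTGGGAA (6.38%) and the GATA sequence AGATAA (11.2%) are in none of the 7. These are matches of letters and show no binding.

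The 10 transcripts divided into 4 that were high in Kupffer-like cells and low in endothelial-like cells, 3 with the opposite pattern, and 3 present in both. Relative to all other kept cells, 7 of the 10 were at least 2-fold higher in Kupffer-like cells (Marco, Msr1, Cd163, Scarb1, Mrc1, Clec4f and Cd5l), where 9.05% of the 15641 genes with at least 10 UMI were. In endothelial-like cells 6 of the 10 were at least 2-fold higher (Msr1, Cd36, Scarb1, Mrc1, Lyve1 and Clec4g), against 17.9% of all genes. The median log2 fold of the 10 was 2.06 in Kupffer-like cells, against -0.31 over all genes, and 1.63 in endothelial-like cells, against -0.05. The highest class was the Kupffer-like one for 6 genes and the endothelial-like one for 4, although for Msr1 the first place rested on a ratio whose interval includes 1.

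**Figure D1:**
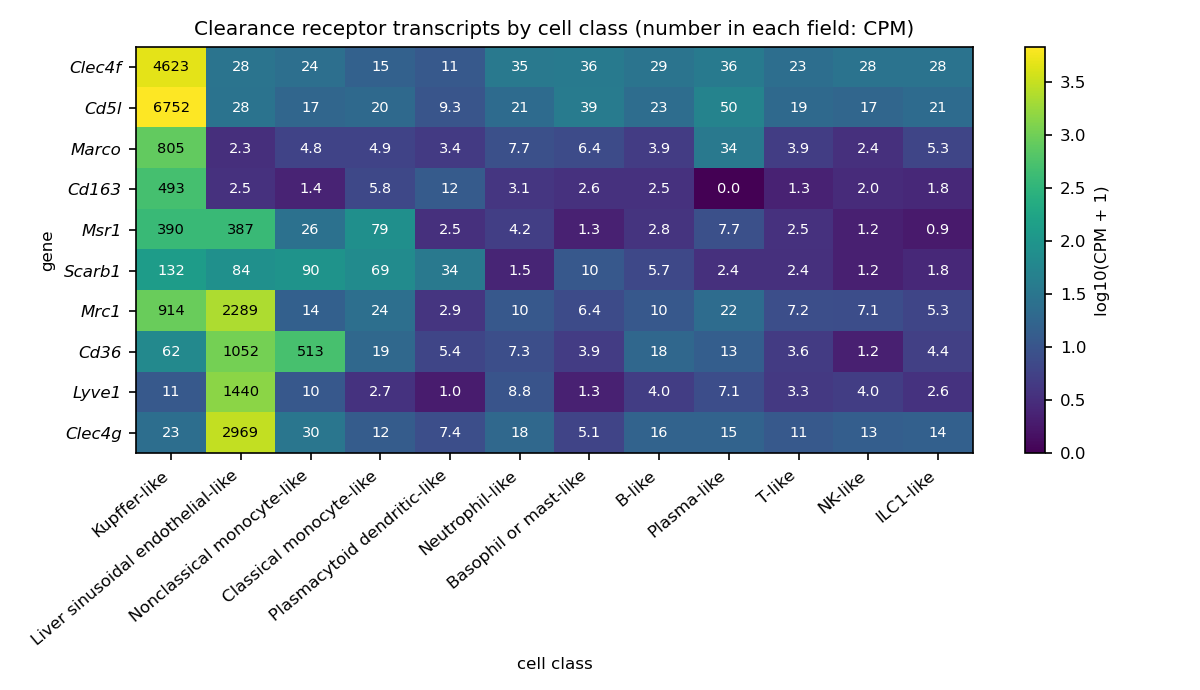
Level of each of the 10 transcripts in the 12 cell classes, in CPM (numbers) and as log10(CPM + 1) (colour); 1 row per gene, 1 column per class, each class summed over its cells. The brightest fields lie in the Kupffer-like column for Clec4f and Cd5l and in the endothelial-like column for Clec4g, Mrc1, Lyve1 and Cd36; Cd36 is also at 513 CPM in nonclassical monocyte-like cells.

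Set directly against each other, 4 of the 10 genes were at least 2-fold higher in Kupffer-like than in endothelial-like cells, where 12.1% of all genes were, and 4 were at least 2-fold higher in endothelial-like than in Kupffer-like cells, where 20.7% of all genes were. The first 4 are Marco, Cd163, Clec4f and Cd5l, and the second 4 are Cd36, Mrc1, Lyve1 and Clec4g. Msr1 and Scarb1 differed by less than 2-fold.

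**Figure D2:**
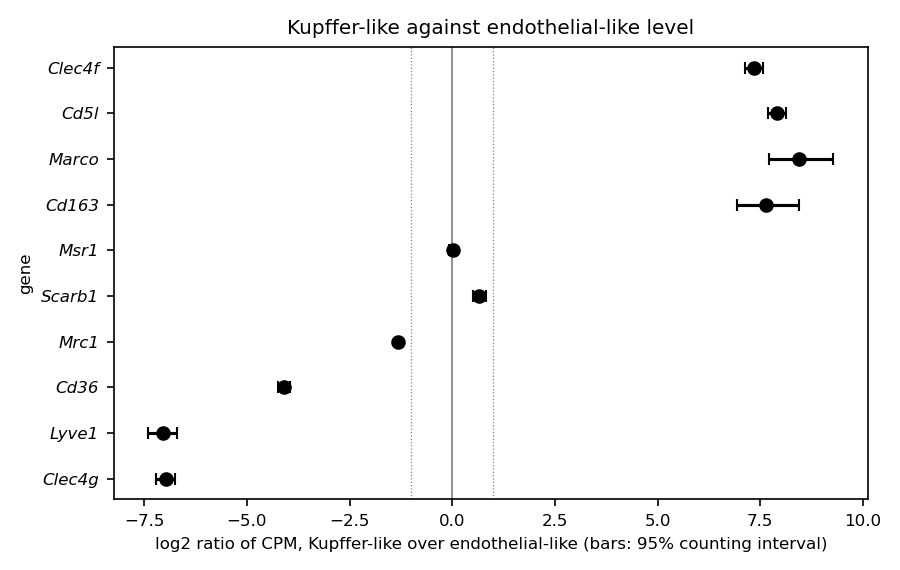
Log2 ratio of the Kupffer-like to the endothelial-like CPM for each gene, with the 95% counting interval; dotted lines mark 2-fold. Marco, Cd163, Clec4f and Cd5l lie at the right, with ratios from 163 to 348, and Lyve1 and Clec4g at the left; Msr1 lies on the line of equal level.

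Clec4f is a C-type lectin that in mice is made by Kupffer cells and binds galactose-type sugars. It stood at 4623 CPM (4570 to 4677) in Kupffer-like cells and 28.4 CPM (24.4 to 32.8) in endothelial-like cells, a ratio of 163 (141 to 189). At least 1 Clec4f UMI was found in 96.7% of Kupffer-like cells and 14.4% of endothelial-like cells. Lymphocytes are not known to make it, and it was found in 9.45% of B-like cells (median 3241.5 UMI) and 10.0% of T-like cells (median 4899 UMI). With every cell thinned to 1000 UMI, it was found in 95.7% of Kupffer-like, 2.24% of endothelial-like, 2.96% of B-like and 2.06% of T-like cells, and 54 Kupffer-like cells were too shallow to enter. The thinned endothelial-like share lay between those of T-like and B-like cells. In CPM the endothelial-like level was 1.24 times the T-like one (1.02 to 1.51). Of the 184 endothelial-like UMI, 20 came from 1 cell, which the interval does not allow for. The source of this Clec4f was not tested.

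Cd5l, also called AIM, is not a membrane receptor but a secreted protein of the scavenger receptor cysteine-rich family that macrophages release into the blood, where it travels with IgM. Its level was 6752 CPM (6687 to 6817) in Kupffer-like cells and 28.1 CPM (24.2 to 32.5) in endothelial-like cells, a ratio of 240 (208 to 280). It was found in 98.8% of Kupffer-like cells, 12.3% of endothelial-like cells and 7.15% of B-like cells. Kupffer-like cells held 66.1% of all Cd5l UMI and 67.2% of all Clec4f UMI in the kept cells. Outside the Kupffer-like class, the next level of Cd5l was 50.03 CPM in plasma-like cells, but 76 of those 85 UMI came from 1 cell, which also held 55 of the 58 Marco UMI of the class. Without that cell the plasma-like level was 5.39 CPM for Cd5l and 1.80 CPM for Marco.

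In several classes the low counts of Clec4f and Cd5l were not in the ratio seen in Kupffer-like cells. The Clec4f to Cd5l ratio in UMI was 0.685 (0.675 to 0.695) in Kupffer-like cells, against 1.27 (1.07 to 1.52) in B-like cells, 1.19 (0.984 to 1.44) in T-like cells, 1.59 (1.08 to 2.38) in NK-like cells and 1.69 (1.19 to 2.41) in neutrophil-like cells. The intervals of these 4 classes lie above that of Kupffer-like cells, and so does that of endothelial-like cells, at 1.01 (0.819 to 1.25). ILC1-like cells, at 1.33 (0.761 to 2.37), and nonclassical monocyte-like cells, at 1.40 (0.814 to 2.44), also had intervals above it. Classical monocyte-like cells, at 0.741 (0.521 to 1.05), did not differ from Kupffer-like cells beyond counting error. Nor did plasma-like cells, at 0.729 (0.517 to 1.02), basophil or mast-like cells, at 0.933 (0.537 to 1.62), or plasmacytoid dendritic-like cells, at 1.16 (0.598 to 2.26). Free RNA as the source of these low counts was not tested, since empty droplets were not analysed here.

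Marco and Cd163 marked the Kupffer-like class but not each of its cells. Marco is a class A scavenger receptor that binds bacteria and particles, and Cd163 is the receptor for haemoglobin bound to haptoglobin. Marco stood at 805 CPM (782 to 827) in Kupffer-like cells and 2.32 CPM (1.30 to 3.82) in endothelial-like cells. Cd163 stood at 493 CPM (476 to 511) in Kupffer-like cells and 2.47 CPM (1.41 to 4.01) in endothelial-like cells. The 4 lymphoid classes ranged from 2.38 to 5.28 CPM for Marco and from 1.30 to 2.52 CPM for Cd163, so the endothelial-like levels were no higher than those of lymphocytes. A Marco UMI was found in 67.1% of Kupffer-like, 1.74% of endothelial-like and 1.34% of B-like cells, and a Cd163 UMI in 52.5% of Kupffer-like, 1.49% of endothelial-like and 0.859% of B-like cells.

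Over the 514 Kupffer-like cells, both transcripts were found in 188, Marco alone in 157, Cd163 alone in 82 and neither in 87. Of these cells 133 were shallow. In the deep cluster of 381 cells, with a median of 15635 UMI, Marco averaged 12.0 UMI per cell, yet 110 cells (28.9%) had none, and Cd163 averaged 7.87 UMI, yet 143 cells (37.5%) had none. Msr1, with a mean of 6.14 UMI per cell, had no UMI in 10 of these cells (2.62%), and Mrc1, with a mean of 14.4 UMI, had none in 1.

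Scaled to 10000 UMI per cell, Marco in the deep cluster had a median of 2.32, a 90th percentile of 19.0 and a maximum of 95.3. The tenth of the cells with most Marco held 55.3% of its UMI, against 36.9% for Cd163, 23.7% for Msr1, 22.1% for Mrc1, 20.8% for Clec4f and 19.7% for Cd5l. Among 373 deep Kupffer-like cells with at least 5000 UMI, the Spearman correlation of Marco with Cd163 was 0.019. Marco was correlated with Cd5l at 0.334 and with UMI per cell at 0.174. These cells come from 1 library and share its depth, and the values are a description.

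**Figure D3:**
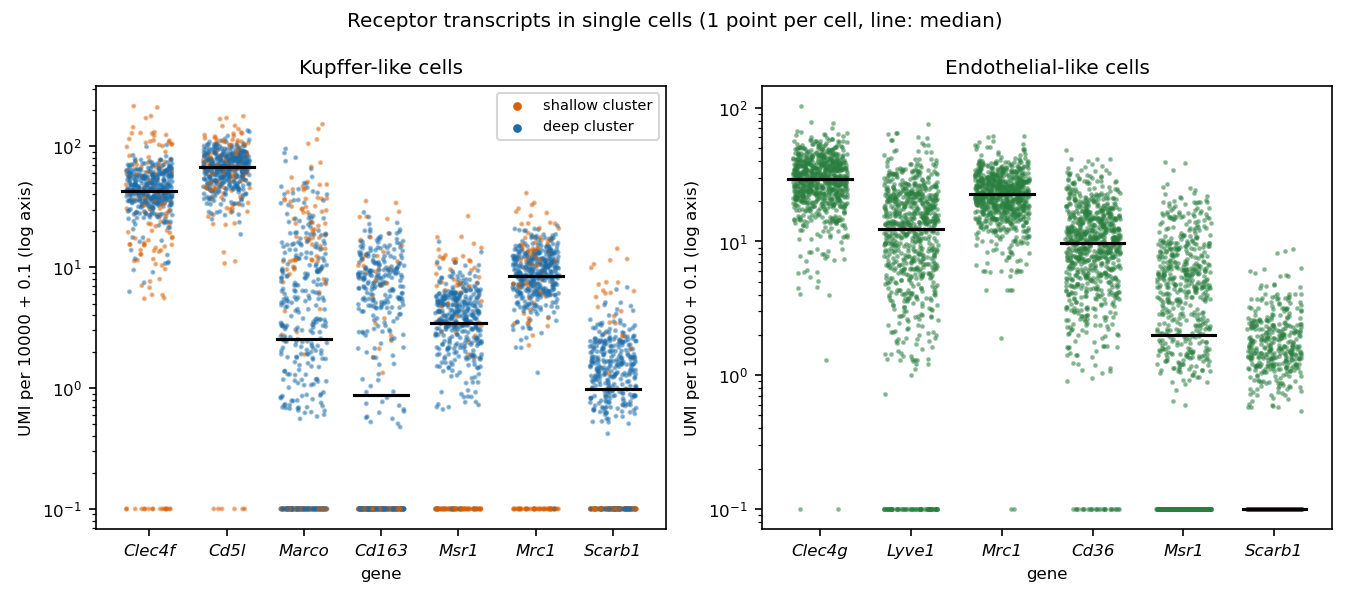
Each point is 1 cell, in UMI per 10000 plus 0.1 on a log axis, so cells without a UMI lie at 0.1; left, 514 Kupffer-like cells coloured by cluster, right, 804 endothelial-like cells, with the median as a line. Marco and Cd163 spread from 0 to over 30 in Kupffer-like cells. Clec4f and Cd5l form a compact band in the deep cluster, while some cells of the shallow cluster have no UMI of them. In endothelial-like cells Msr1 spreads widely and Clec4g and Mrc1 do not.

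The Kupffer-like class was made of 2 clusters that differed in depth, 133 cells with a median of 1285 UMI and 381 cells with a median of 15635 UMI. Marco stood at 1809 CPM in the shallow cluster and 765 CPM in the deep one, a ratio of 2.36 (2.14 to 2.61). Cd163 went the other way, at 290 CPM in the shallow cluster and 501 CPM in the deep one, a ratio of 0.579 (0.448 to 0.736). Clec4f (1.06; 0.994 to 1.12), Cd5l (1.05; 0.997 to 1.10), Msr1 (0.939; 0.748 to 1.16) and Scarb1 (0.971; 0.650 to 1.40) had intervals that include 1. After thinning to 1000 UMI, Marco was found in 50.6% of shallow and 31.0% of deep cells, and Cd163 in 19.0% of shallow and 33.3% of deep cells. The part of cell quality in these ratios was not tested.

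In endothelial-like cells, Clec4g and Lyve1 were the counterpart of Clec4f and Cd5l. Clec4g, also called LSECtin, is a C-type lectin of liver and lymph node sinusoids, and Lyve1 is a hyaluronan receptor of lymphatic and liver sinusoidal endothelium. Clec4g stood at 2969 CPM (2927 to 3011) in endothelial-like cells and 23.5 CPM (19.8 to 27.6) in Kupffer-like cells, and the endothelial-like level was 126 times the other (107 to 150). Lyve1 stood at 1440 CPM (1411 to 1470) in endothelial-like cells and 10.9 CPM (8.49 to 13.9) in Kupffer-like cells, and the endothelial-like level was 132 times the other (104 to 170). Clec4g was found in 99.8% of endothelial-like cells and 20.0% of Kupffer-like cells, and after thinning in 92.2% of endothelial-like, 1.52% of Kupffer-like and 1.86% of B-like cells. Lyve1 was found in 91.4% of endothelial-like cells and 10.5% of Kupffer-like cells, and after thinning in 62.8% of endothelial-like and 0.870% of Kupffer-like cells. Before thinning, 1.41% of B-like cells had a Lyve1 UMI. The Kupffer-like level was 2.20 times the T-like one for Clec4g (1.71 to 2.83) and 3.27 times for Lyve1 (2.15 to 5.04), while the endothelial markers summed to 740 CPM in Kupffer-like and 56.6 CPM in T-like cells; their part in these levels was not tested.

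Lyve1 varied more from cell to cell than Clec4g, but its mean was lower, at 11.6 UMI per endothelial-like cell against 23.9. Per 10000 UMI it had a 10th percentile of 1.25, a median of 12.2 and a 90th percentile of 28.2 in endothelial-like cells, and the tenth of cells with most Lyve1 held 33.4% of its UMI, against 22.5% for Clec4g.

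Mrc1, the mannose receptor, was abundant in both cell types. It stood at 2289 CPM (2253 to 2326) in endothelial-like cells and 914 CPM (891 to 939) in Kupffer-like cells, and the endothelial-like level was 2.50 times the other (2.43 to 2.58). Endothelial-like cells held 51.6% of all Mrc1 UMI and Kupffer-like cells 19.8%. It was found in 99.8% of endothelial-like, 89.5% of Kupffer-like and 3.51% of B-like cells, and after thinning in 89.2% of endothelial-like and 57.2% of Kupffer-like cells. The next class, classical monocyte-like cells, was at 24.1 CPM, 38.0 times lower than Kupffer-like cells. The gene overlaps that of the microRNA Mir511 on the same strand, and whether any Mir511 reads enter the Mrc1 counts was not tested.

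Cd36, which binds long-chain fatty acids and oxidised lipoproteins, was shared between endothelial-like cells and 1 class of monocytes. It stood at 1052 CPM (1027 to 1077) in endothelial-like cells, 513 CPM (477 to 552) in nonclassical monocyte-like cells and 61.8 CPM (55.8 to 68.3) in Kupffer-like cells. The ratio of the first to the second was 2.05 (1.90 to 2.21). At least 1 UMI was found in 96.8% of endothelial-like and 73.7% of nonclassical monocyte-like cells, and after thinning in 58.6% of endothelial-like and 35.8% of nonclassical monocyte-like cells. Cd36 was 1 of the 2 genes of the 10, with Scarb1, at least 2-fold higher in nonclassical monocyte-like cells than in other kept cells, where 5.42% of all genes were. Classical monocyte-like cells had 19.0 CPM. None of the 10 was at least 2-fold higher in classical monocyte-like cells (5.19% of all genes), in B-like cells (5.72%) or in T-like cells (4.78%).

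Among lymphocytes, Cd36 was higher in B-like cells, at 17.8 CPM (15.4 to 20.6), than in T-like cells, at 3.62 CPM (2.58 to 4.95), a ratio of 4.92 (3.47 to 7.14). The endothelial markers summed to 192 CPM in B-like and 56.6 CPM in T-like cells, and their part in this difference was not tested. A B-like cluster of 466 cells led by Vpreb3 had 37.1 CPM, against 14.4 CPM in other B-like clusters, a ratio of 2.58 (1.85 to 3.54). It was found in 9.44% of the cells of that cluster and 4.34% of other B-like cells. In Kupffer-like cells Cd36 was uneven: the tenth of cells with most Cd36 held 74.7% of its UMI. Its mean there was 0.747 UMI per cell. In the deep cluster alone the share was 66.8%, at a mean of 0.982 UMI per cell. The part of such low counts in these shares was not tested. The 48 deep Kupffer-like cells with at least 3 Cd36 UMI had 905 CPM of summed endothelial markers, against 710 CPM in the other 333. Clec4g was 37.2 CPM in the 48 and 20.0 CPM in the 333, and Lyve1 11.3 CPM in the 48 and 10.8 CPM in the 333. Marco was also higher in the 48, at 1123 CPM against 703 CPM, and so was Cd5l, at 7373 CPM against 6629 CPM. Cd163 was lower in the 48, at 474 CPM against 506 CPM, and so was Mrc1, at 862 CPM against 929 CPM. The part of endothelial RNA in this Cd36 was not tested.

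Msr1, a class A scavenger receptor for modified lipoproteins, had levels in the 2 sinusoidal classes that differed by less than counting error. It stood at 390 CPM (375 to 406) in Kupffer-like cells and 387 CPM (372 to 402) in endothelial-like cells, a ratio of 1.01 (0.953 to 1.07). The distribution over cells was not the same: 81.7% of Kupffer-like and 62.4% of endothelial-like cells had a UMI, and after thinning 32.8% of Kupffer-like and 29.0% of endothelial-like cells. B-like cells were at 0.962% before thinning. The tenth of cells with most Msr1 held 28.6% of its UMI in the Kupffer-like and 44.8% in the endothelial-like class. Among 685 endothelial-like cells with at least 5000 UMI, the Spearman correlation of Msr1 with Cd36 was 0.437, the largest among pairs of the 10 genes in either class. The 312 endothelial-like cells with at least 3 Msr1 UMI had 1304 CPM of Cd36, against 691 CPM in the 302 without Msr1. Median depth was 7603 UMI in the 312 and 7125 UMI in the 302. Lyve1 was also higher in the 312, at 1523 CPM against 1240 CPM, and so was Clec4g, at 3054 CPM against 2732 CPM. Kupffer markers summed to 454 CPM in the 312 and 428 CPM in the 302. Mrc1 was 2284 CPM in the 312 and 2250 CPM in the 302, and Scarb1 86.9 CPM against 88.4 CPM. Classical monocyte-like cells had 78.6 CPM of Msr1 (70.3 to 87.6) and nonclassical ones 26.2 CPM (18.6 to 36.03).

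Scarb1, the receptor for high-density lipoprotein, was spread over 5 classes. It stood at 132 CPM (123 to 141) in Kupffer-like cells, 90.5 CPM (75.7 to 107) in nonclassical monocyte-like cells, 83.5 CPM (76.6 to 90.8) in endothelial-like cells, 68.9 CPM (61.1 to 77.4) in classical monocyte-like cells and 33.9 CPM (26.4 to 42.9) in plasmacytoid dendritic-like cells. The nonclassical monocyte-like and endothelial-like levels did not differ beyond counting error, with a ratio of 1.08 (0.888 to 1.31). Kupffer-like cells held 32.1% of all Scarb1 UMI, endothelial-like cells 21.2% and classical monocyte-like cells 11.1%. In plasmacytoid dendritic-like cells the 69 UMI came from 61 cells with at most 2 each, so no single cell carried the value, and the ratio to T-like cells was 14.0 (8.81 to 22.9). A Scarb1 UMI was found in 64.0% of Kupffer-like, 46.6% of endothelial-like and 1.02% of T-like cells. The gene Gm42633 overlaps Scarb1 on the same strand.

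Plasmacytoid dendritic-like cells were also the next class for Cd163, at 11.8 CPM (7.55 to 17.5). The 24 UMI came from 22 cells, and the ratio to T-like cells was 9.06 (4.50 to 18.9), with 8.56% of plasmacytoid dendritic-like and 0.683% of T-like cells positive. Kupffer-like cells were 41.9 times higher (28.1 to 65.4). The summed Kupffer markers of the plasmacytoid dendritic-like class were 42.2 CPM, against 68.8 CPM in T-like cells.

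**Figure D4:**
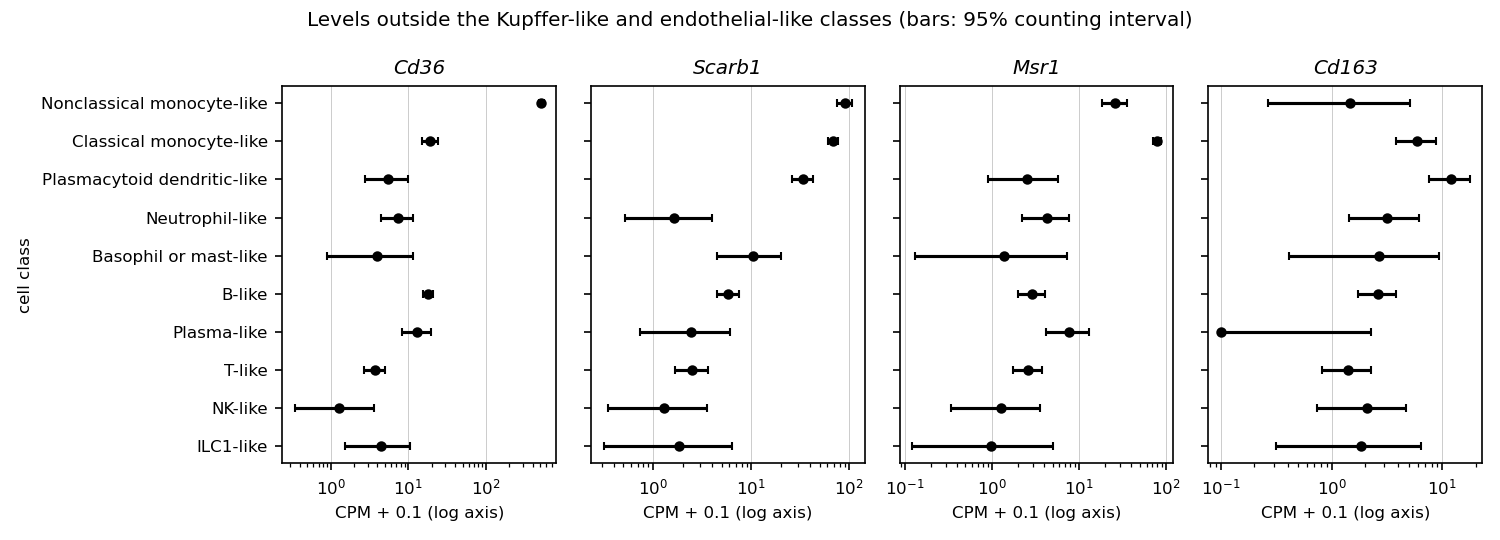
Levels of Cd36, Scarb1, Msr1 and Cd163 in the 10 classes other than the Kupffer-like and endothelial-like ones, in CPM plus 0.1 on a log axis, with 95% counting intervals. Cd36 stands out in nonclassical monocyte-like cells, Scarb1 in both monocyte classes and in plasmacytoid dendritic-like cells, and Msr1 in both monocyte classes.

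A cluster of 193 cells carried both marker sets and stayed unnamed, with a median of 24347 UMI, against 13167.5 UMI in Kupffer-like cells and 7323.5 UMI in endothelial-like cells. Each of the 9 Kupffer and 10 endothelial markers was present in 25% of its cells or more, and its cells remained after Scrublet's doublets had been removed. Levels of 9 of the 10 transcripts lay between those of the classes, Msr1 being the exception. Of the 8 that differed at least 2-fold between the classes, the cluster lay 54.4 to 73.3% of the way from the endothelial-like to the Kupffer-like CPM, with Cd163 at the upper end. Clec4f stood at 2581 CPM in the cluster, against 4623 CPM in Kupffer-like and 28.4 CPM in endothelial-like cells, and Clec4g at 1178 CPM in the cluster, against 23.5 CPM in Kupffer-like and 2969 CPM in endothelial-like cells.

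Single barcodes carried the combination. At least 3 UMI of both Clec4f and Clec4g were in 184 of the 193 cells (95.3%), against 9 of 514 Kupffer-like cells (1.75%) and 8 of 804 endothelial-like cells (0.995%). Whether these barcodes are pairs of cells or single cells was not tested. When each cell was instead gated by its own markers, 147 of these cells counted as Kupffer-like and 34 as endothelial-like. Clec4f then stood at 3934 CPM in 652 Kupffer-like and 214 CPM in 834 endothelial-like cells, and Clec4g at 415 CPM in that Kupffer-like group. The unnamed clusters together held 29.7% of all Marco UMI.

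**Figure D5:**
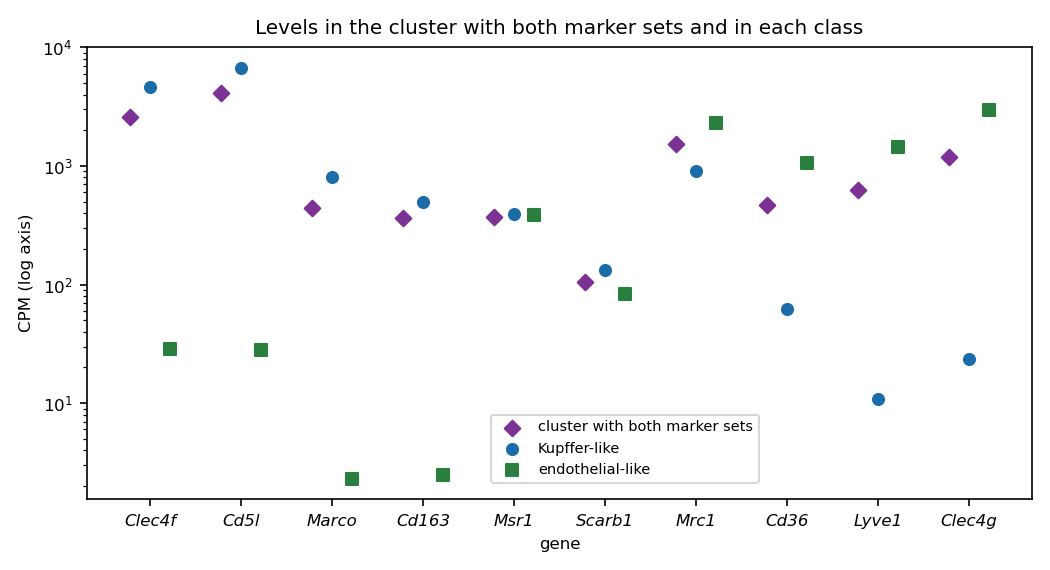
CPM on a log axis of each of the 10 transcripts in the unnamed cluster with both marker sets (diamonds), in Kupffer-like cells (circles) and in endothelial-like cells (squares). For every gene but Msr1 the diamond lies between the circle and the square.

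A shallow cluster of 63 cells, with a median of 1183 UMI, had all 10 endothelial markers but stayed unnamed, being shallow and with no endothelial marker among its 10 leading genes. Its Clec4g was 2685 CPM, against 2969 CPM in the named endothelial-like class, a ratio of 0.904 (0.789 to 1.03). Lyve1 (0.468; 0.353 to 0.608), Mrc1 (0.584; 0.480 to 0.704), Cd36 (0.606; 0.454 to 0.794) and Msr1 (0.592; 0.356 to 0.926) were lower in it. Its Cd5l was 241 CPM, against 28.1 CPM in the named class, a ratio of 8.57 (5.11 to 13.6). That level rests on 20 UMI, and Cd5l was found in 11.1% of the shallow cluster and 12.3% of the named class. After thinning, Cd5l was found in 8.11% of the 37 shallow cells deep enough to enter and 2.24% of the named class. Clec4f was also higher in the shallow cluster, at 132 CPM against 28.4 CPM, a ratio of 4.66 (2.29 to 8.54) on 11 UMI. Cd163 had a ratio of 14.6 (2.73 to 51.1) on 3 UMI. Marco had a ratio of 5.20 (0.124 to 33.8) on 1 UMI, an interval that includes 1.

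Other clearance genes were described by list, in Kupffer-like cells over other kept cells. Of the other scavenger receptors 7 of 19 tested (36.8%) were at least 2-fold higher, of the other lectin receptors 14 of 31 (45.2%), of the other clearance receptors 10 of 16 (62.5%) and of the macrophage and endothelial regulators 8 of 20 (40%), against 9.05% of all genes. In endothelial-like cells the counts in the same order were 6 of 19 (31.6%), 7 of 31 (22.6%), 4 of 16 (25%) and 7 of 20 (35%), against 17.9% of all genes. Median log2 folds in Kupffer-like cells were 0.24, 0.90, 2.29 and 0.74 in the same order, against -0.31 over all genes. In endothelial-like cells they were -0.43, -2.35, -4.23 and 0.55, against -0.05 over all genes. Of the genes of these lists named below, Vsig4, Adgre1, Stab2, Fcgr2b and Tcf4 are also class markers, Tcf4 for plasmacytoid dendritic cells. Class markers were not removed from the counts above. Vsig4 and Adgre1 are Kupffer markers, and Stab2 and Fcgr2b are endothelial markers. Their calls in those classes follow in part from how the clusters were named. The lectin receptor Clec7a was not analysed here.

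Several genes of the lists stood far higher in Kupffer-like cells. The lipopolysaccharide co-receptor Cd14 was at 621 CPM in Kupffer-like and 4.17 CPM in endothelial-like cells, the lysosomal Cd68 at 526 CPM in Kupffer-like and 4.94 CPM in endothelial-like cells, and the endocytic receptor Lrp1 at 500 CPM in Kupffer-like and 3.86 CPM in endothelial-like cells. Ficolin A (Fcna), a secreted lectin, was at 1878 CPM in Kupffer-like and 10.7 CPM in endothelial-like cells, and Lgals3, a galectin, at 550 CPM in Kupffer-like and 4.17 CPM in endothelial-like cells. Vsig4, a complement receptor, was at 2110 CPM in Kupffer-like and 10.0 CPM in endothelial-like cells, and Adgre1, the F4/80 antigen, at 915 CPM in Kupffer-like and 3.24 CPM in endothelial-like cells.

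Others stood higher in endothelial-like cells or were shared. The scavenger receptors Stab1 and Stab2 had 1033 and 969 CPM in endothelial-like cells and 37.3 and 80.3 CPM in Kupffer-like cells. The inhibitory Fc receptor Fcgr2b was at 2621 CPM in endothelial-like and 13.2 CPM in Kupffer-like cells, and the neonatal Fc receptor Fcgrt at 627 CPM in endothelial-like and 295 CPM in Kupffer-like cells. Clec14a was at 943 CPM in endothelial-like and 4.50 CPM in Kupffer-like cells, Cd93 at 336 CPM in endothelial-like and 1.29 CPM in Kupffer-like cells, and Clec2d at 368 CPM in endothelial-like and 88.8 CPM in Kupffer-like cells. Cd47, which signals against engulfment, was at 1479 CPM in endothelial-like and 746 CPM in Kupffer-like cells. Scarb2, a lysosomal protein of the family of Cd36 and Scarb1, was at 270 CPM in Kupffer-like and 278 CPM in endothelial-like cells, and Clec1b, the lectin CLEC-2, at 570 CPM in Kupffer-like and 300 CPM in endothelial-like cells. Of the transcription factors, Maf was at 1172 CPM in Kupffer-like and 3557 CPM in endothelial-like cells, Id3 at 1399 CPM in Kupffer-like and 520 CPM in endothelial-like cells, Klf2 at 1416 CPM in Kupffer-like and 1302 CPM in endothelial-like cells and Tcf4 at 148 CPM in Kupffer-like and 917 CPM in endothelial-like cells.

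Over the 12 classes, the genes most like each receptor were named by the Pearson correlation of log2(CPM + 1), among 11932 genes with at least 100 UMI. Clec4f and Cd5l were each among the other's closest, at 0.988, and Clec4g and Lyve1 at 0.990. The first genes were Slc1a3 (0.972) for Marco, Fmn1 (0.974) for Msr1, Kcnk13 (0.938) for Cd163, Tmem51os1 (0.939) for Cd36, Plxnb2 (0.975) for Scarb1, Zfp366 (0.984) for Mrc1, S100a16 (0.995) for Lyve1, Timd4 (0.989) for Cd5l and Ephb4 (0.991) for Clec4g. The remaining places were held by Smc1b and Ptgis for Marco, Cflar and Cxcl16 for Msr1, Trim41 and Sectm1a for Cd163, Fabp4 and Pnp2 for Cd36, and Gm26881 and Cyfip1 for Scarb1. They were held by Itga9 and Dab2 for Mrc1, Fcna and Vsig4 for Clec4f, Fkbp14 for Lyve1, Igf1 for Cd5l and F8 for Clec4g. The 12 points come from 1 library and differ in depth, and the values are a description.

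By position in GENCODE vM21 on GRCm38, the 10 genes are dispersed over 7 chromosomes, and no protein-coding gene overlaps any of them. Clec4f spans chr6:83644542-83656187 on the minus strand, Cd5l chr3:87357881-87371073 on the plus strand, and Clec4g chr8:3707064-3720651 on the minus strand, where Gm16553 overlaps it on the other strand. Marco spans chr1:120474538-120505024, Cd36 chr5:17781690-17888801, Scarb1 chr5:125277087-125341094, Lyve1 chr7:110850607-110863239 and Msr1 chr8:39581685-39642673, all on the minus strand. Cd163 spans chr6:124304656-124330527 and Mrc1 chr2:14229392-14332057, both on the plus strand.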

How the data were processed

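The authors deposited raw UMI counts per gene and barcode, seen from whole-number values. The submitters' processing notes name mm10, STAR, Seurat 2.3.4 and Cell Ranger 2.1.1 without roles, while software version 3.0.0 stands in the matrix, per the file headers. Kept barcodes had at least 500 UMI, at least 200 genes (56 of 11192 failed) and a mitochondrial share of at most 10% (778 failed), and 382 Scrublet doublets (3.69%) were removed. Python 3.11.15 with scanpy 1.11.5 was used: 2000 variable genes without the 10 receptors, 30 components, 15 neighbours, Leiden resolution 1, giving 27 clusters. Clusters took the class of the leading marker list (22 lists, 149 genes) if at least 3 markers were in at least 25% of cells and the log2 fold was at least 1; 5 clusters (808 cells) with mixed, shallow or conflicting markers stayed unnamed. The fold calculation was tested on simulated data. UMI were summed per class as CPM; a 2-fold call uses a pseudocount of 1 CPM on genes with at least 10 UMI. Intervals treat UMI as independent and leave out variation between cells and animals.

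Named genes are the 10 receptors, the 3 most correlated genes of each and the 3 highest genes of each of 4 lists in both sinusoidal classes. The receptors and lists were chosen with earlier results of these data known; splits of cells by Cd36 or Msr1 UMI, the plasma-like cell and the Vpreb3 cluster were chosen after the values were seen. Alternatives are given in the closing section.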

Additional observations from a re-analysis of the deposited data

How the results depend on the processing

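Results were recomputed under 17 alternatives, 3 of them chosen after seeing the data (without the shallow Kupffer-like cluster, with the shallow endothelial cluster, and with unnamed clusters left out). The others were other filters, doublets kept, other clustering settings, the 10 genes allowed into the clustering, a marker gate on each cell, other ways of forming the CPM, another pseudocount, subtraction of the B-like level, and thinning to 1000 UMI. Leaving out the filter on low genes bears on the share of all genes called, which was then 4.57% in Kupffer-like over other cells, 9.03% in endothelial-like over other cells, 6.12% in Kupffer-like over endothelial-like cells and 10.5% in endothelial-like over Kupffer-like cells. No value changed direction among the genes called 2-fold apart between Kupffer-like and endothelial-like cells, and both counts of 4 stayed at 4. The count at least 2-fold higher than other cells ranged from 6 to 7 in Kupffer-like cells and from 5 to 6 in endothelial-like cells. The highest class changed for Msr1 only, to an endothelial class with at most 5% mitochondrial UMI, with the mean of per-cell CPM, after thinning and with the marker gate. Of 170 log2 ratios, 42 moved beyond their counting interval. The log2 ratio of Kupffer-like to endothelial-like cells ranged from 4.20 to 12.17 for Clec4f, from 4.25 to 10.06 for Cd5l, from 3.96 to 8.94 for Cd163, from 5.47 to 9.65 for Marco, from -8.38 to -2.79 for Clec4g, from -7.50 to -2.63 for Lyve1 and from -4.53 to -2.38 for Cd36. For each of these 7 genes the ratio was nearest to 0 with the marker gate and farthest from 0 with the B-like level subtracted. Mrc1, the remaining gene called 2-fold apart, ranged from -1.37 to -1.02, so its call stayed close to the 2-fold limit. With the marker gate, which put 147 cells of the unnamed cluster with both marker sets into the Kupffer-like group, Clec4g stood at 415 CPM there. No paired analysis was possible because both samples hold the same matrix. With 1 matrix no replicate could be left out, and depth limits statements on levels near those of lymphocytes.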
